A study of Setaria italica with 24 samples.

Results

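The genes described here had lower root transcript levels with arbuscular mycorrhizal fungi (AMF) in the foxtail millet cultivar TT8 and higher levels with AMF in the landraces Hanevalval and ISE36. They were chosen by their measured values. R was computed per gene and line as the log2 ratio of the AMF mean plus 1 to the mock mean plus 1, over SETIT_ genes with a mean of 5 or more in each of the 3 tables. Genes were kept where R in TT8 was -1 or less, with every AMF library below every mock library of TT8, and where R was 0.5 or more in both landraces. These steps kept 39 of 23323 genes tested, or 39 of the 23789 genes listed in all 3 tables. All AMF responses given for these genes therefore describe the choice and carry no test.

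Foxtail millet (Setaria italica) is a grass cereal. TT8 is a cultivar from Taiwan, Hanevalval a landrace from Taiwan and ISE36 a landrace from India, and the labels of the ISE36 libraries spell that line ICE36. Young plants of each line grew in an autoclaved mix of sand and peat moss and were inoculated with the fungus Claroideoglomus etunicatum, the AMF group, or left without it, the mock group. Roots were taken 6 weeks after inoculation, with 4 libraries in each of the 6 groups and thus 24 libraries of polyadenylated RNA. The line differs together with everything inherited with it, so these data describe 3 lines and no single allele. The study calls the replicates biological and reports that those of mock-treated Hanevalval clustered less well than the other groups. The sources used here do not say whether a replicate was a single plant or a pool, so the spread between single plants is not known.

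In arbuscular mycorrhiza the fungus grows through the outer root and forms branched arbuscules inside cortex cells, where it hands over phosphate and receives sugars and lipids. Root cells then switch on a conserved set of genes, among them a phosphate transporter of the arbuscule membrane, and reset many others that act in nutrient uptake, defence and cell wall building. Lignin, a wall polymer, is made from phenylalanine, which phenylalanine ammonia-lyase (PAL) feeds into the pathway. Cinnamyl alcohol dehydrogenase (CAD) makes its alcohol building blocks, and class III peroxidases oxidise these in the wall so that they polymerise. The scheme of lignin formation drawn in the study places SETIT_0172531mg among CAD genes and SETIT_010431mg among peroxidases, which could not be checked here, and the other members are given by identifier only.

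The libraries held 15013564 to 23333517 reads on genes. The values are gene counts scaled by a size factor per library, not corrected for gene length, so they are compared within a gene only. In bulk roots, fewer cells of a type and less RNA per cell cannot be told apart. Summed values of 11 genes that mark colonization were 11855 to 20565 in AMF-treated TT8, against 137 to 221 in mock-treated TT8 replicates 1 to 3 and 507 in replicate 4. They were 705 to 6054 in AMF-treated Hanevalval, against 137 and 202 in mock-treated replicates 2 and 1 and 486 and 322 in replicates 3 and 4. In ISE36 the sums were 470.0 to 2061 with AMF and 92.2 to 134 with mock. SiPHT1;9, the mycorrhizal phosphate transporter among them, stood at 74.6 in mock-treated TT8 replicate 4 and at 97.0 and 29.1 in mock-treated Hanevalval replicates 3 and 4, and at 3.31 or less in the other 9 mock libraries. All 12 mock libraries held some marker reads, and these 3, named the marker-high mock libraries here, held the most. Their labels were kept, and counts of members called are given with and without them. The study scored colonization by root staining and found it similar between the lines, a measure unlike these transcript sums.

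With AMF the 39 genes had a median R of -1.38 in TT8, with a range of -2.45 to -1.01. Their median R was 0.89 in Hanevalval, with a range of 0.51 to 2.15, and 0.99 in ISE36, with a range of 0.51 to 2.55. Over all 23323 genes the medians of R were -0.02, -0.03 and -0.01 in TT8, Hanevalval and ISE36. The 2 genes with the lowest R in TT8 were SETIT_022804mg at -2.45 and SETIT_038901mg at -2.39. SETIT_003229mg had the highest R in ISE36 at 2.55, and SETIT_011730mg the highest in Hanevalval at 2.15. R was larger in ISE36 than in Hanevalval for 22 members and larger in Hanevalval for 17, so neither landrace led throughout.

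**Figure D1:**
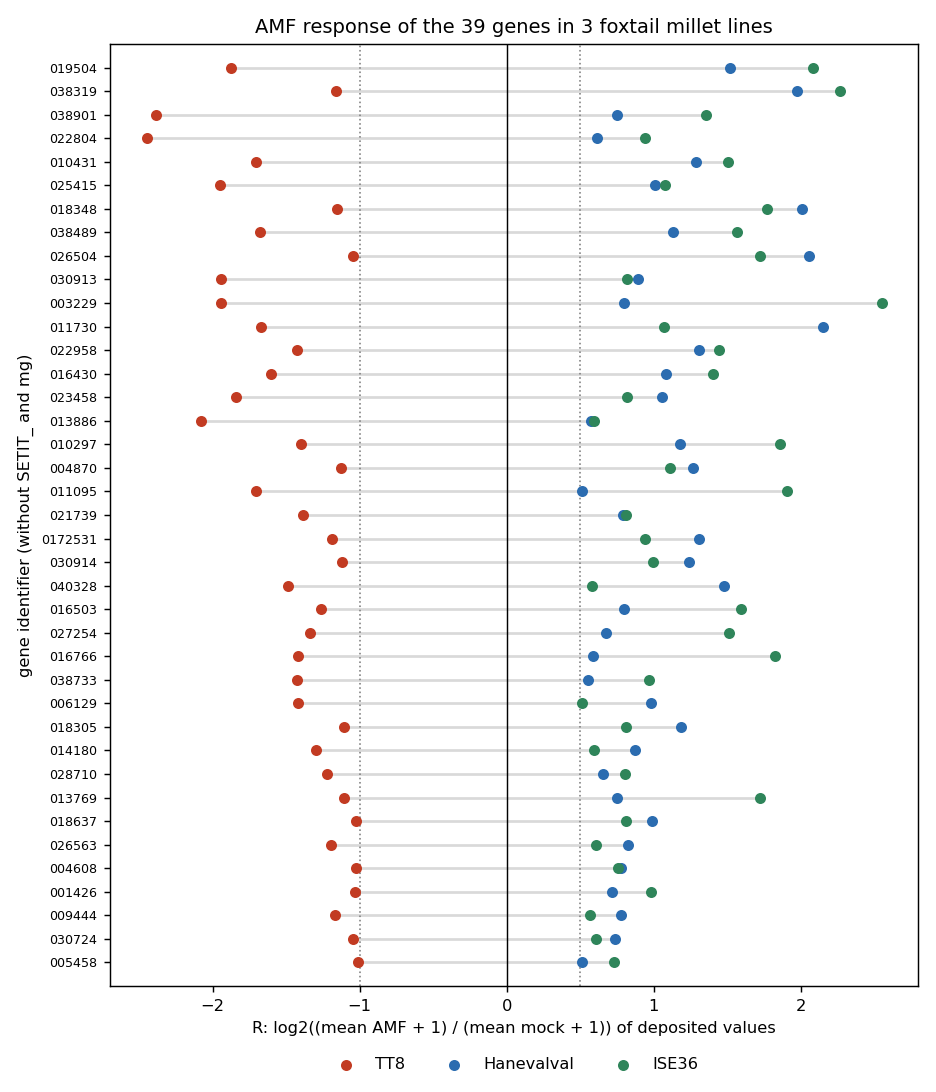
R, the log2 ratio of the AMF mean plus 1 to the mock mean plus 1, on the horizontal axis for each of the 39 genes in TT8 (red), Hanevalval (blue) and ISE36 (green). Dotted lines stand at the thresholds of -1 and 0.5 that chose the genes, and the genes run from the widest distance between TT8 and the nearer landrace at the top to the narrowest at the bottom.

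Within the series this combination was uncommon among TT8-lowered genes. The TT8 part of the rule alone kept 1073 genes, 4.60% of those tested, and 39 of these 1073 met the landrace part. Of the 1073 genes, 465 had an R of -0.5 or less in both landraces. In 20 of them R reached 0.5 in Hanevalval only, and in 78 in ISE36 only. The median R of the 1073 genes was -0.99 in Hanevalval and -0.48 in ISE36. In reverse, 1529 genes had an R of 1 or more in TT8 without overlap, and 70 of them had an R of -0.5 or less in both landraces. An R of 0.5 or more in both landraces was found for 2848 genes, of which 98 had an R of -1 or less in TT8 whether or not the TT8 libraries overlapped.

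Genes close to the limits were much like those that passed. SETIT_005458mg was nearest the TT8 limit with an R of -1.01, while SETIT_030173mg stayed outside at -0.99. It was also nearest the Hanevalval limit with an R of 0.51, where SETIT_004726mg stayed outside with 0.499. In ISE36 SETIT_006129mg passed with an R of 0.51 and SETIT_022586mg with 0.49 did not. For SETIT_028710mg the highest AMF value in TT8 was 72.0 and the lowest mock value 72.3, and for SETIT_010077mg, which stayed outside, they were 349.0 and 348.

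The treatments were apart by unequal margins. In TT8 the lowest mock value was 1.00 to 3.34 times the highest AMF value of the same gene, with a median of 1.29. In ISE36 every AMF library lay above every mock library for 29 of the 39 genes, against 17.6% of all genes tested, and in Hanevalval for 13 of 39, against 11.6%. The choice by R favours both counts, so nothing is read from them. 9 genes had no overlap in any line, a combination that 0.300% of all genes showed, 20 had none in ISE36 alone among the landraces, 4 had none in Hanevalval alone and 6 overlapped in both landraces.

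Limma with Benjamini-Hochberg adjustment over all genes of a line, at an adjusted p of 0.05 or less and a 2-fold change, called 38 of the 39 genes lower with AMF in TT8, where 6.10% of all genes were called lower. In Hanevalval it called 2 members higher, SETIT_011730mg and SETIT_0172531mg, with 1.42% of all genes called higher. In ISE36 it called 18 members higher, with 5.79% of all genes. The difference in response, TT8 minus landrace, was called negative for 39 members against Hanevalval (6.43% of all genes) and for 37 against ISE36 (6.16%), SETIT_016430mg and SETIT_018305mg being the exceptions. These contrasts chose the genes, so the counts describe them and are no evidence of their direction. In TT8 the count was 19 without mock replicate 2 and 23 without AMF replicate 2, where 712 and 813 of all genes were called lower. It was 24 without AMF replicate 4 and 39 without mock replicate 4, where 753 and 2285 of all genes were called. With all libraries 1517 of all genes were called lower in TT8. In Hanevalval the count was 8 without mock replicate 3, where 1764 of all genes were called higher. It was 0 without any 1 of the other 7 libraries, where 0 to 90 of all genes were called. In those fits 9 to 17 members had an unadjusted limma p under 0.05 together with a 2-fold rise. The rule favours such a rise and the same count over all genes was not taken, so nothing is read from it. On all 8 libraries DESeq2 called 8 members and 1284 of all genes, and edgeR 2 members and 285 of all genes. Without the 3 marker-high mock libraries, 39 members were called in TT8 and 17 in Hanevalval, where 4068 of all genes were called higher, against 354 with them. The differences in response were then called for 39 members against Hanevalval, with 3760 of all genes, and 38 against ISE36, with 3175.

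SETIT_011730mg had the widest separation in Hanevalval. Its values with AMF in TT8 were 152, 186, 154 and 180.1, against 657, 672, 421 and 397 with mock. The Hanevalval values were 3362, 3056, 3119 and 4399.6 with AMF, against 556, 486, 1635 and 457 with mock. In ISE36 they were 531, 1084, 665 and 657 with AMF, against 288, 282, 386 and 441 with mock. The groups did not overlap in any line, and the AMF-treated Hanevalval libraries were far above all others while the AMF-treated TT8 libraries were the lowest of the 24. Limma log2 fold changes were -1.63 ± 0.20 (SE) in TT8, 2.36 ± 0.39 in Hanevalval and 1.04 ± 0.23 in ISE36. Mock-treated Hanevalval replicate 3, a marker-high library, stood apart from the other mock libraries of that line. Without it the log2 fold change in Hanevalval was 2.79 ± 0.17.

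SETIT_038901mg was the member without overlap in any line that had the lowest R in TT8. In TT8 its values were 21.8, 15.5, 12.6 and 23.1 with AMF and 139.7, 87.8, 93.8 and 77.0 with mock. AMF-treated Hanevalval gave 112, 112, 139.7 and 135, against 53.6, 103, 93.3 and 46.4 in mock-treated Hanevalval. AMF-treated ISE36 gave 138, 184, 137 and 117, against 85.1, 46.4, 43.4 and 48.2 in mock-treated ISE36. With mock the ranges of the 3 lines overlapped, although ISE36 reached the TT8 range in replicate 1 only. With AMF the 4 TT8 libraries were all below every other library. The log2 fold changes were -2.39 ± 0.27 in TT8, 0.82 ± 0.29 in Hanevalval and 1.39 ± 0.24 in ISE36.

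SETIT_0172531mg, the gene the study places among CADs, likewise had no overlap in any line. Its TT8 values were 1129, 1412, 1177 and 1421 with AMF, against 4177, 3608, 2377 and 1561 with mock. Hanevalval had 6304, 4475, 9109 and 6083 with AMF, against 2278, 1810.3, 3113 and 3303 with mock. For ISE36 the values were 1872, 2625, 2508 and 2415 with AMF, against 1227, 1204, 1304 and 1170.4 with mock. Mock-treated TT8 was spread widely, with replicate 4 only a little above the AMF libraries, and mock-treated ISE36 was the tightest group. The log2 fold changes were -1.10 ± 0.28 in TT8, 1.30 ± 0.27 in Hanevalval and 0.93 ± 0.12 in ISE36. Without the marker-high library, mock replicate 4, it was -1.37 ± 0.19 in TT8. Its mean was 1285 in AMF-treated TT8 and 1226 in mock-treated ISE36.

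SETIT_010431mg, the gene placed among peroxidases, separated in TT8 and ISE36 by narrow margins. In TT8 it had 14.2, 18.6, 25.2 and 26.4 with AMF, against 72.6, 102, 28.1 and 80.6 with mock. Hanevalval libraries had 109.6, 80.4, 289 and 195 with AMF, against 35.3, 26.6, 95.1 and 116 with mock. ISE36 libraries had 24.6, 88.5, 38.7 and 26.1 with AMF, against 5.32, 15.7, 14.5 and 24.6 with mock. Mock replicate 3 was the TT8 library that brought the groups close, and in Hanevalval the groups overlapped because mock replicates 3 and 4 lay among the lower AMF libraries. In ISE36 the highest mock and the lowest AMF library were 24.57 and 24.59, so the separation there was smaller than the value of 1 read.

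**Figure D2:**
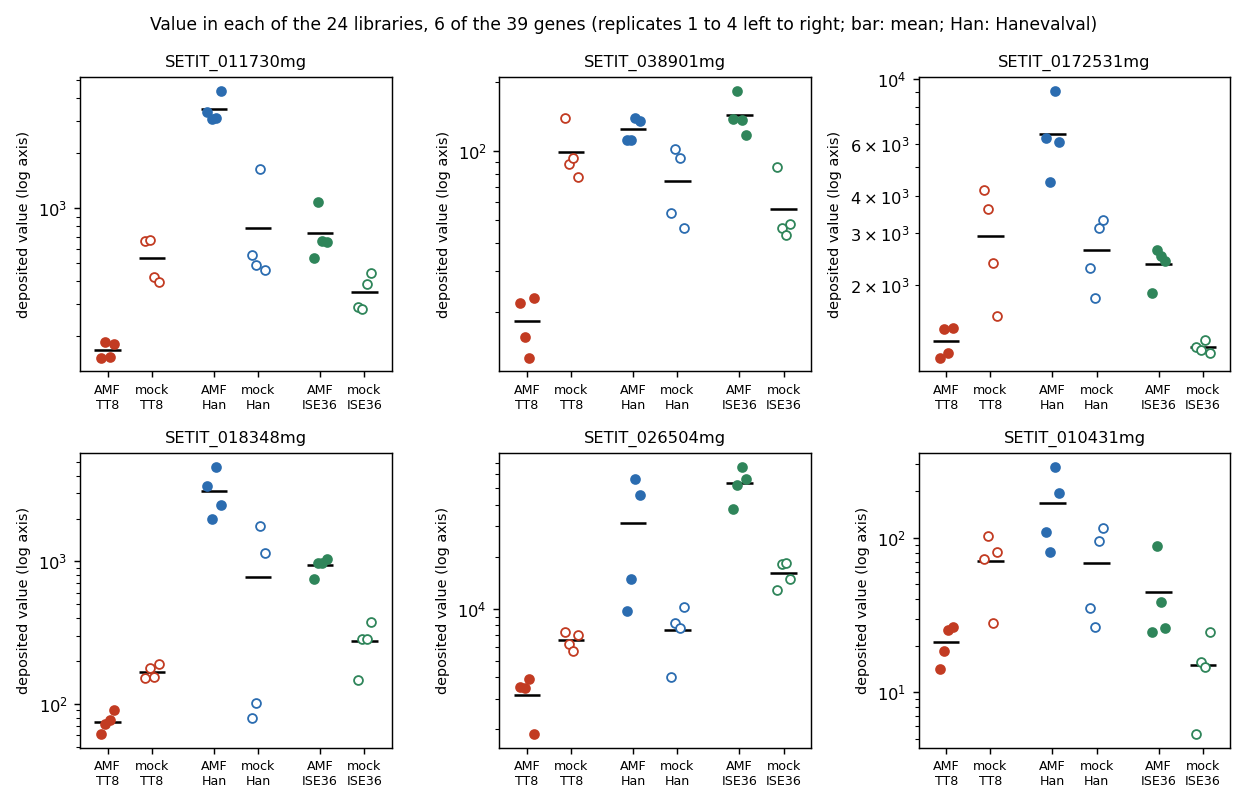
Deposited value (counts scaled per library, log axis) of 6 of the 39 genes in each library, AMF as filled and mock as open points, with the mean of 4 libraries as a bar. In every panel the filled TT8 points are below the open ones, and in both landraces the filled mean is above the open mean; SETIT_026504mg and SETIT_018348mg show the replicates of Hanevalval far apart.

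The remaining genes without overlap in any line were SETIT_018348mg, SETIT_004870mg, SETIT_021739mg, SETIT_016503mg, SETIT_018637mg and SETIT_026563mg. SETIT_016503mg had 199.6, 179, 178 and 159 with AMF in TT8, against 666, 527, 312 and 217 with mock. With AMF it had 1029, 1475, 1305 and 1150.3 in ISE36, against 306, 423, 452 and 458 with mock, and 666, 787, 927 and 847 in Hanevalval, against 399, 414, 468 and 579 with mock. The mock-treated libraries of the 3 lines overlapped for this gene, while with AMF every TT8 library was below every landrace library. SETIT_026563mg had an even level with AMF in TT8, at 348, 354, 366 and 357, against 1135, 874, 759.9 and 499 with mock. Its landrace values were 1525, 1034, 1532 and 1219 with AMF in Hanevalval, against 707, 597, 940.1 and 758 with mock, and its R in ISE36 was 0.60.

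SETIT_021739mg and SETIT_004870mg shared a feature of the TT8 mock libraries, in which replicate 4 was the lowest. SETIT_021739mg had 317, 326, 313 and 280.1 with AMF in TT8, against 901, 1325, 555 and 450.2 with mock. SETIT_004870mg had 302, 263, 313 and 346 with AMF in TT8, against 938, 783, 605 and 351 with mock, so its groups were apart only narrowly. In the landraces R was 0.79 in Hanevalval and 0.81 in ISE36 for SETIT_021739mg, and 1.27 and 1.11 for SETIT_004870mg. For SETIT_018637mg the TT8 values were 507, 339, 351 and 321 with AMF, against 646, 849, 949 and 655 with mock, and R was 0.99 in Hanevalval and 0.81 in ISE36.

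Across members the TT8 libraries were not alike. The median deviation of the 39 genes from their line mean, on the log2(value + 1) scale, was between -0.73 and -0.56 in the 4 AMF-treated TT8 libraries, and 0.98, 0.90, 0.64 and 0.24 in mock-treated TT8 replicates 1 to 4. Mock-treated TT8 replicate 4, the marker-high library of that line, was the lowest mock library for 29 of the 39 genes, against 34.9% of all genes. Without it the rule kept 110 genes, which included all 39, and without AMF-treated TT8 replicate 1 it kept 81, again including all 39. Leaving out any other library gave 31 to 46 genes. Without mock replicate 4 the median R of the 39 genes in TT8 was -1.48, with a range of -2.69 to -1.01. The part of the marker-high mock library in these values was not tested.

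**Figure D3:**
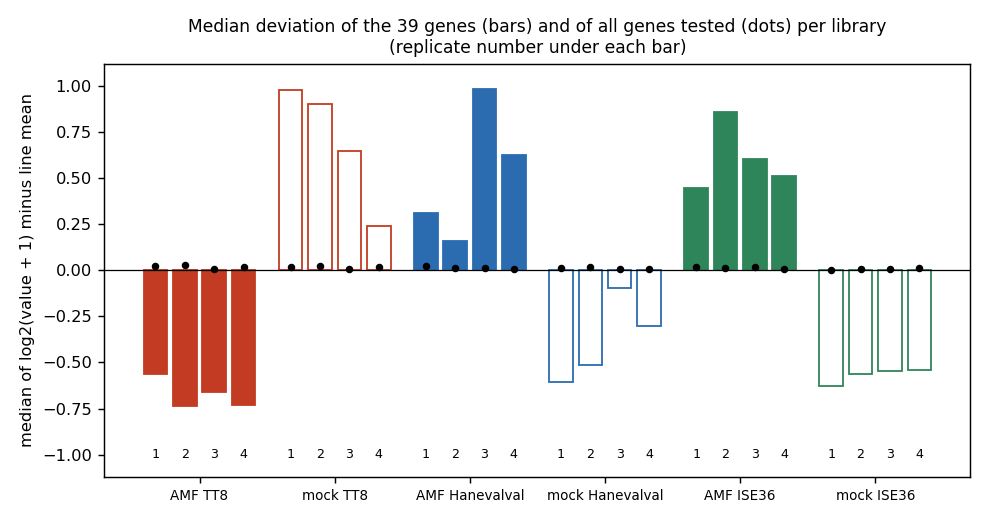
Median deviation from the line mean on the log2(value + 1) scale for each of the 24 libraries, as bars for the 39 genes (AMF filled, mock open) and as dots for all 23323 genes. The TT8 bars are negative with AMF and positive with mock, mock-treated TT8 replicate 4 is the shortest of these at 0.24, and the dots are all within 0.03 of 0.

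In Hanevalval the replicates differed more than in the other lines. The median SD over the 39 genes was 32.1% of the mean in AMF-treated and 43.7% in mock-treated Hanevalval, where the medians over all genes were 19.9% and 32.2%. In TT8 the medians for the members were 24.6% with AMF and 27.7% with mock, beside 16.9% and 23.6% over all genes. In ISE36 they were 21.9% with AMF and 27.2% with mock, beside 17.0% and 17.9%. AMF-treated Hanevalval replicate 3 was the highest of its group for 25 of the 39 genes, against 27.4% of all genes. In ISE36 AMF replicate 2 was the highest of its group for 23 members, against 27.2% of all genes, and replicate 1 the lowest for 22, against 25.8%.

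A set of 6 members had AMF-treated Hanevalval replicates 3 and 4 at 2 or more times the values of replicates 1 and 2, against 1.23% of all genes. The set was noticed in the data and is a description. R is taken from means, so the rule favours genes with some very high AMF-treated Hanevalval libraries, and nothing is read from the share. It consisted of SETIT_019504mg, SETIT_038319mg, SETIT_026504mg, SETIT_022958mg, SETIT_038733mg and SETIT_013769mg. For 4 of the 6, AMF-treated Hanevalval replicates 1 and 2 both lay within the range of the mock libraries, while replicates 3 and 4 were above every mock library in all 6. The opposite arrangement, AMF-treated replicates 1 and 2 at 2 or more times replicates 3 and 4, was found for 0 members, against 1.60% of all genes. The summed colonization markers were 6054 and 705 in AMF-treated replicates 1 and 2 and 1674 and 1669 in replicates 3 and 4. A link between these sums and the arrangement was not tested. All 6 genes were without overlap in ISE36, as were 29 of the 39 members, against 17.6% of all genes. The choice by R favours this, so it does not mark the set.

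SETIT_026504mg took the most reads of all members, up to 0.331% of the reads of a library. Its values in TT8 were 3499, 3476, 3895 and 1872 with AMF, against 7286, 6279, 5669.7 and 7076 with mock. In Hanevalval AMF replicates 1 to 4 had 9716, 14804, 56179 and 45368, against 4049.6, 8287, 7729 and 10211 in mock replicates 1 to 4. ISE36 had 37852, 52164, 66403 and 56624 with AMF, against 12869.5, 18282, 18519 and 14911 with mock. The AMF-treated ISE36 libraries were all above their mock libraries, and AMF-treated Hanevalval reached into the ISE36 range in replicates 3 and 4 only. R was -1.05 in TT8, 2.06 in Hanevalval and 1.72 in ISE36.

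SETIT_019504mg had the widest distance between TT8 and the nearer landrace of all 39 genes. In TT8 it had 25.1, 10.3, 21.0 and 29.7 with AMF, against 135, 68.3, 81.9 and 40.3 with mock. Hanevalval gave 50.4, 78.4, 385 and 172 with AMF, against 58.1, 79.7, 28.0 and 71.2 with mock. ISE36 gave 1202, 1917, 1777 and 1357 with AMF, against 280.3, 409.9, 429 and 354 with mock. All ISE36 libraries, AMF and mock, were above all TT8 libraries, and AMF-treated Hanevalval exceeded mock only through replicates 3 and 4. The AMF-treated TT8 mean was 21.5 and the AMF-treated ISE36 mean 1563.

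SETIT_038319mg was next, with R of -1.16 in TT8, 1.98 in Hanevalval and 2.27 in ISE36. Its TT8 values were 89.4, 101, 110.1 and 64.8 with AMF, against 298, 179.5, 217 and 128 with mock. Its Hanevalval values were 148, 353, 1164 and 1095 with AMF, against 161, 273, 110.1 and 154 with mock. SETIT_022958mg had 434, 741, 3273 and 1569.6 with AMF in Hanevalval, against 384, 639, 435 and 969 with mock. AMF replicates 1 and 2 of SETIT_022958mg lay within its mock range, while for SETIT_038319mg replicate 1 did and replicate 2 was above it. In ISE36 both were clearly apart, SETIT_038319mg with 1225 to 2099.6 with AMF against 192 to 437 with mock, and SETIT_022958mg with 2909.8 to 4050.4 against 990.2 to 1698. SETIT_013769mg had 404, 472, 1393 and 1017 with AMF in Hanevalval, against 434, 553, 349 and 616 with mock, and SETIT_038733mg had 297, 312, 807 and 634, against 415, 434, 212 and 337.

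A second set of 6 members had mock-treated Hanevalval replicates 3 and 4 at 2 or more times replicates 1 and 2, against 9.75% of all genes. These were SETIT_010431mg, SETIT_018348mg, SETIT_016430mg, SETIT_030914mg, SETIT_016766mg and SETIT_009444mg, and the 2 libraries concerned are the marker-high ones of this line. SETIT_018348mg had 79.8, 102, 1769 and 1152 in mock-treated replicates 1 to 4, beside 3364, 1987, 4613 and 2498 in AMF-treated ones. In TT8 it had 61.1, 72.4, 76.5 and 90.1 with AMF, against 151, 178, 155 and 189.6 with mock, and in ISE36 757, 969, 979.7 and 1045 with AMF, against 146, 287, 287 and 379 with mock. SETIT_016430mg had 14.8, 138, 926 and 568 in mock-treated Hanevalval replicates 1 to 4, beside 1245, 670.3, 947 and 626 with AMF. For SETIT_018348mg all mock libraries were below the AMF libraries, and for SETIT_016430mg mock replicate 3 alone reached among them. Mock replicates 1 and 2 were the lowest in both genes. Without mock-treated Hanevalval replicates 3 and 4 the median R of the 39 genes in Hanevalval was 1.22, against 0.89 with them, and R ran from 0.15 to 5.09 and so was above 0 for all 39 genes. The part of the marker-high libraries in this difference was not tested.

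**Figure D4:**
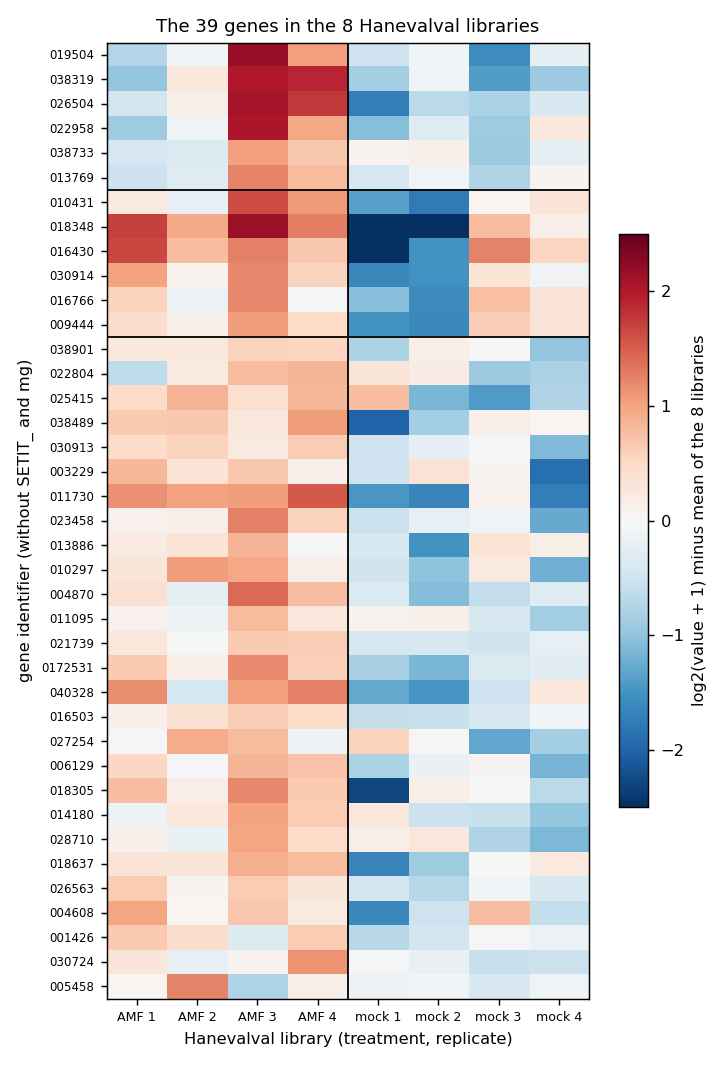
Deviation of log2(value + 1) from the mean of the 8 Hanevalval libraries for the 39 genes (rows) in AMF replicates 1 to 4 and mock replicates 1 to 4 (columns), red above and blue below the mean, with colours capped at -2.5 and 2.5. The top block of 6 genes is highest in AMF replicates 3 and 4, the middle block of 6 is lowest in mock replicates 1 and 2, and the other 27 genes follow below.

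SETIT_030913mg and SETIT_030914mg have consecutive identifiers and were the only such pair among the members. SETIT_030913mg had 227, 153, 137 and 103 with AMF in TT8, against 828, 648, 623 and 293 with mock. In Hanevalval it had 907, 974, 771 and 1018 with AMF, against 458, 560.1, 652 and 304 with mock, and in ISE36 179.7, 268, 484 and 333 with AMF, against 259, 139, 153 and 164 with mock. SETIT_030914mg had 526, 628, 758 and 861 with AMF in TT8, against 1470.2, 1999, 1321 and 1229.7 with mock. In Hanevalval its values were 6235, 3307, 7122 and 4569 with AMF, against 1023, 1093, 3956 and 2930.4 with mock. The pair differed in where overlap occurred: SETIT_030913mg was separate in Hanevalval and overlapped in ISE36, and SETIT_030914mg was separate in ISE36 with R of 0.99 and overlapped in Hanevalval. Whether the pair is alike in sequence or adjacent in the genome could not be checked here. Reads shared between near-identical copies, if any, cannot be told apart in these counts.

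Of the 6 members that overlapped in both landraces, SETIT_022804mg had the lowest R of all in TT8. It had 16.4, 9.30, 19.9 and 11.0 with AMF in TT8, against 118, 101, 70.8 and 36.7 with mock. In Hanevalval the values were 39.4, 72.5, 107 and 113 with AMF, against 76.4, 71.2, 32.6 and 35.6 with mock, and in ISE36 69.0, 111, 129 and 56.9 with AMF, against 71.8, 43.1, 38.9 and 35.5 with mock. The treatments overlapped in both landraces, with limma log2 fold changes of 0.60 ± 0.43 in Hanevalval and 0.92 ± 0.31 in ISE36. SETIT_013886mg was similar, with R of -2.08 in TT8, 0.58 in Hanevalval and 0.60 in ISE36. The others were SETIT_005458mg, SETIT_006129mg, SETIT_014180mg and SETIT_040328mg, with R in the landraces between 0.51 and 1.47. SETIT_005458mg had 168, 385, 94.5 and 179 with AMF in Hanevalval, against 149, 155, 125 and 151 with mock. AMF replicate 2 stood far above the rest, and without it the limma log2 fold change there was -0.028, against 0.33 with it.

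The members with the lowest counts need the most care. 7 of the 39 genes had a mean under 20 in at least 1 line, and 32 remained when a mean of 20 or more was required in each. SETIT_025415mg, the member not called lower in TT8, had 5.45, 3.10, 0 and 5.49 with AMF in TT8, against 24.2, 27.3, 5.97 and 8.29 with mock. SETIT_006129mg had 5.45, 4.14, 5.24 and 6.59, against 12.1, 16.6, 18.8 and 16.6. The value of 1 read was between 0.828 and 1.18, so these levels rest on few reads per library. SETIT_003229mg, with the highest R in ISE36, had 122, 285, 81.6 and 85.8 with AMF there, against 34.6, 14.1, 31.6 and 14.6 with mock, and 13.1, 3.10, 3.15 and 5.49 with AMF in TT8, against 26.1, 29.3, 29.0 and 22.5 with mock.

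The lines stood further apart with AMF than with mock. AMF-treated TT8 had the lowest of the 6 group means for 34 of the 39 genes, against 15.3% of all genes, and mock-treated ISE36 had it for the other 5, against 13.8%. The highest group mean was that of AMF-treated Hanevalval for 19 genes (25.5% of all genes), of AMF-treated ISE36 for 18 (13.7%) and of mock-treated TT8 for 2 (24.9%). With AMF the TT8 mean was below both landrace means for all 39 genes, against 38.7% of all genes, and the median log2 ratio of the group means plus 1 was -2.35 for TT8 over Hanevalval and -1.96 for TT8 over ISE36. With mock the same medians were 0.16 and 0.54. The mock-treated TT8 mean was above the mock-treated Hanevalval mean for 25 genes, above the mock-treated ISE36 mean for 30 and above both for 20, where the shares of all genes were 47.9%, 51.1% and 36.9%. The rule used all 24 libraries, so these levels are a description too.

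Limma on the 6 group means called 35 members lower in AMF-treated TT8 than in AMF-treated Hanevalval, where 9.82% of all genes were called lower, and 31 lower than in AMF-treated ISE36, where 8.89% were. Among mock-treated roots 1 member, SETIT_027254mg, was called higher in TT8 than in Hanevalval, against 1.55% of all genes, and 7 were called higher in TT8 than in ISE36, against 5.92%. The 7 were SETIT_010431mg, SETIT_038489mg, SETIT_030913mg, SETIT_0172531mg, SETIT_040328mg, SETIT_027254mg and SETIT_026563mg. In the other direction 3 members, SETIT_019504mg, SETIT_026504mg and SETIT_028710mg, were called lower in mock-treated TT8 than in mock-treated ISE36, against 10.5% of all genes. Counts of higher members in mock-treated TT8 moved with single libraries. Against Hanevalval limma called 0 without mock-treated TT8 replicate 2 or mock-treated Hanevalval replicate 3, where 205 and 197 of all genes were called higher. In both fits 2 members had an unadjusted limma p under 0.05 together with a 2-fold difference. The same count over all genes was not taken, so nothing is read from it. It called 2 without mock-treated TT8 replicate 4 (631 of all genes), AMF-treated Hanevalval replicate 2 (360) or mock-treated Hanevalval replicate 1 (957). With all libraries limma called 364 of all genes higher there, and DESeq2 called 2 members and 524 of all genes. Against ISE36 the limma count was 4 without mock-treated TT8 replicate 1 and 11 without the 3 marker-high mock libraries. In these fits 1040 and 1955 of all genes were called higher, against 1390 with all libraries. Against Hanevalval it was 1 without the 3 marker-high mock libraries, with 392 of all genes. Both genes that the study places in lignin formation were among the 7 called higher in mock-treated TT8 than in mock-treated ISE36. The log2 difference was 1.16 ± 0.25 (SE) for the CAD gene SETIT_0172531mg and 2.19 ± 0.54 for the peroxidase gene SETIT_010431mg. The mock and AMF values entered the rule, which favours a high mock level in TT8 and a low one in ISE36. All calls between lines are therefore a description.

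**Figure D5:**
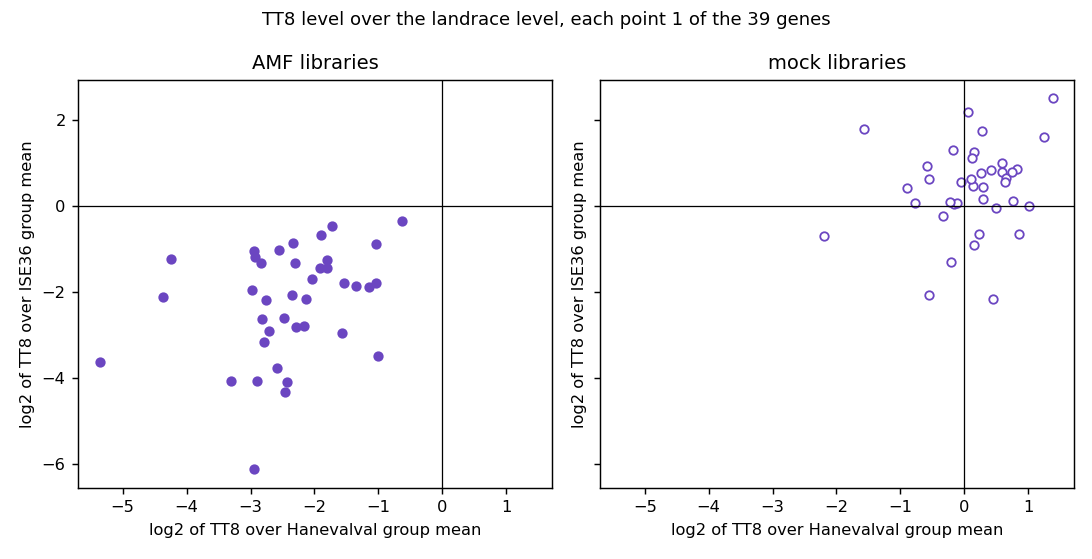
Log2 ratio of TT8 over Hanevalval group means plus 1 (horizontal) and of TT8 over ISE36 (vertical), for AMF libraries on the left and mock libraries on the right, each point 1 of the 39 genes. With AMF all 39 points are below 0 on both axes, and with mock 20 are above 0 on both.

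SETIT_027254mg showed the mock difference most plainly. It had 42.5, 43.4, 37.7 and 45.0 with AMF in TT8, against 107, 120.0, 107 and 97.1 with mock. In Hanevalval it had 46.02, 90.4, 83.0 and 42.9 with AMF, against 69.5, 48.4, 18.7 and 25.9 with mock, and in ISE36 72.8, 73.6, 45.5 and 24.2 with AMF, against 10.6, 19.0, 19.9 and 23.7 with mock. Every mock-treated TT8 library exceeded every landrace library, and AMF-treated TT8 fell within the landrace range. SETIT_028710mg was of the other kind, with 72.0, 34.1, 45.1 and 24.2 with AMF in TT8 and 837, 579.6, 873 and 785 with AMF in ISE36, and with mock 115, 136, 91.3 and 72.3 in TT8 and 366, 405, 450.3 and 536 in ISE36. For that gene TT8 was below ISE36 under both treatments.

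All members together took a small share of the reads. The share was 0.0415% to 0.0600% of reads in AMF-treated TT8, against 0.0901% to 0.185% in mock-treated TT8. In Hanevalval it was 0.233% to 0.528% with AMF, against 0.0975% to 0.177% with mock, and in ISE36 0.336% to 0.4998% with AMF, against 0.149% to 0.174% with mock. The groups did not overlap in any line, a separation that the rule favours. SETIT_026504mg alone took 0.202% to 0.331% of reads in AMF-treated ISE36. In AMF-treated Hanevalval replicates 1 to 4 it took 0.0487%, 0.0787%, 0.278% and 0.233%.

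Of the 6 PAL genes that the study lists, 0 met the rule and they did not move as a block. SETIT_016504mg came closest, with R of -1.08 in TT8, 1.45 in Hanevalval and 1.25 in ISE36. Its values in TT8 were 4501, 7749, 6019.8 and 8566 with AMF, against 22303, 17686, 6674 and 10121 with mock, and the overlap of mock replicate 3 with the AMF libraries kept it out. SETIT_009509mg was lower with AMF without overlap in TT8, at 3901, 5180.4, 4774 and 5046 against 16099, 15037, 7073 and 11274 with mock, but had R of -0.63 in Hanevalval and 0.08 in ISE36. SETIT_009345mg and SETIT_016475mg had AMF above mock without overlap in all 3 lines, with R in TT8 of 1.39 and 1.73. SETIT_013348mg had R of -0.77 in TT8 and 1.10 in Hanevalval, and SETIT_016478mg -0.29 and 0.63, and in ISE36 R was -0.0046 for SETIT_013348mg and 1.30 for SETIT_016478mg.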

How the data were processed

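The authors trimmed reads with Trimmomatic 0.38, aligned them to the Setaria italica v2.0 genome with HISAT2 2.1.0 and counted them per gene with featureCounts 2.0.0, and the labels name DESeq2 1.26.0. The authors deposited 1 table per line of signal values, which are gene counts divided by a size factor per library. Every value was a whole multiple of the value of 1 read, within 0.001 reads, in 100% of values, so reads could be recovered for the 24 libraries, of 15013564 to 23333517 reads. The size factors share a scale across lines, which allows levels to be set side by side. Replicates were checked for duplicated libraries, and the smallest chi-square per gene between 2 of a group was 6.94. Every column has a sample.

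R and the rule were computed in Python 3.11.15 with pandas 2.3.3 and numpy 2.4.6, and figures drawn with matplotlib 3.10.9. Limma 3.58.1 in R 4.3.3 fitted log2(value + 1) and let the variance depend on the level. Each line was fitted by itself over genes averaging at least 5, and the 6 groups of the 24 libraries together for differences between lines. A call required a Benjamini-Hochberg adjusted p of 0.05 or less over all genes tested and an absolute log2 fold change of 1 or more, except for differences in response, which had no fold minimum. Alternatives included count models of the recovered reads with DESeq2 1.42.0 and edgeR 4.0.16, other pseudocounts, filters and scalings, a replicate block and leaving out libraries. The steps were tested on simulated data. The members and lists were chosen with earlier results of these data known.

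Genes were named as the 10 members of largest span, the lower landrace R minus the TT8 R, with a mean of 20 or more, those the study places, up to 10 without overlap in any line, those nearest a threshold and those with consecutive identifiers. Others were named after their values were seen. The reference table here matched 0 members, so gene descriptions, promoters and sequences were not analysed here.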

Additional observations from a re-analysis of the deposited data

Results flagged for a closer look

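Among the 20 named genes, 6 of 120 groups of 4 libraries held a library far from the other 3 on the log2(value + 1) scale, about the 1 in 20 that chance gives. Over all 39 members it was 11 of 234 groups. SETIT_026504mg had 1872 in AMF-treated TT8 replicate 4, below the 3476 to 3895 of the other replicates. SETIT_021739mg had 581 in AMF-treated ISE36 replicate 1, below 881 to 946. SETIT_011730mg had 1635 in mock-treated Hanevalval replicate 3, above 457 to 556, and this is 1 of the 3 marker-high mock libraries. SETIT_005458mg had 125 in the same library, below 149 to 155. SETIT_038901mg had 85.1 in mock-treated ISE36 replicate 1, above 43.4 to 48.2, and SETIT_026563mg had 427 in mock-treated ISE36 replicate 4, above 355 to 361.

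The AMF response differed between lines for the members, as the rule that chose them requires. Limma called the response in TT8 lower than that in Hanevalval for 39 members, with 6.43% of all genes. It called it lower than that in ISE36 for 37, with 6.16% of all genes. The rule used these contrasts, so the counts are a description.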

How the results depend on the processing

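The rule depended on the libraries and on the scaling. Leaving out 1 library gave 31 to 110 members and kept 30 to 39 of the 39, and leaving out the 3 marker-high mock libraries together, an alternative chosen after seeing the data, gave 123, of which 33 were shared. Under the other settings 31 to 51 genes passed. Equal library totals (CPM scaling) moved the median R of all genes to -0.26 in TT8, -0.15 in Hanevalval and -0.08 in ISE36 and kept 41 genes, 28 of them shared.

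Leaving out 1 library gave 19 to 39 members called lower in TT8, with 19 without mock replicate 2, 23 without AMF replicate 2 and 24 without AMF replicate 4. Over all genes those fits called 712 to 2285. For Hanevalval leaving out 1 library gave 0 to 8 members called higher, against 2, and 0 to 1764 of all genes, against 354. There DESeq2 called 8 members with 1284 of all genes, and the fit over the 24 libraries 15 with 1962. The fit with a replicate block called 5 with 885, and the fit without the 3 marker-high mock libraries 17 with 4068. Between 14 and 22 members, and 1161 to 1658 of all genes, were called in ISE36 with 1 library left out. Differences in response were called for 36 to 39 members against Hanevalval and 34 to 37 against ISE36. Over all genes they were called for 956 to 2262 and 805 to 2242. Members called higher in mock-treated TT8 were 0 to 2 against Hanevalval, with 197 to 957 of all genes. They were 2 with CPM scaling or DESeq2, with 473 and 524 of all genes. Against ISE36 they were 4 to 9, with 1040 to 1725 of all genes, and 11 without the 3 marker-high mock libraries, with 1955. Members called lower in AMF-treated TT8 were 33 to 37 against Hanevalval and 30 to 32 against ISE36. The same fits called 2081 to 2394 and 1821 to 2119 of all genes. The log2 fold change of SETIT_005458mg in Hanevalval ranged from -0.028, without AMF replicate 2, to 0.64, without AMF replicate 3. The cause of these changes was not tested.

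No source says that replicate numbers pair the libraries, and they were not taken to. Correlations of same-numbered deviations ran from -0.14 to 0.23, and 5, 5 and 3 of 8 libraries in TT8, Hanevalval and ISE36 correlated best with their own number, a hint from the data of some pairing. The replicate block gave 38 members in TT8 and 18 in ISE36, as without it, but 5 in Hanevalval, against 2, with 885 of all genes called higher there, against 354. Depth limits most the 7 members with a mean under 20 in at least 1 line.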
